A study of Mus musculus with 94 samples.

Results

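The mitochondrially encoded genes were taken as all genes of the table whose symbol begins with mt-, which gave 37 of 16069 genes. They comprised 2 rRNA genes, 13 protein-coding genes and 22 tRNA genes, and all 37 were above 0 in at least 1 cell. The cells were perivascular adipose tissue-derived stem cells (PV-ADSCs), freshly isolated without culture from the fat around the aorta of c57/bl mice of 8 weeks. They had been sorted as negative for CD144 and CD45 and positive for CD29 and Sca1, and a SMARTseq v4 library was made from each cell. The table held 85 of the 94 cells described. All cells were of 1 condition and no animal was named for any of them, so they form 1 sample, and every comparison between cells is a description without a test.

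Mitochondrial DNA is a small circular genome that is present in many copies per cell. It encodes both RNAs of the mitochondrial ribosome, a full set of tRNAs, and a few core subunits of the respiratory chain and of ATP synthase, whereas the remaining subunits and all of the transcription and translation factors come from nuclear genes. Both strands are transcribed as long precursors from which the tRNAs are cut out, so that neighbouring mRNAs are released. The share of a cell's reads that falls on these genes is widely used in single-cell work as a measure of cell quality, and it also differs between cell types.

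The cells were divided by decorin, *Dcn*, a matrix proteoglycan of fibroblast-like cells. A deposited value of at least 1000 defined 58 stromal cells, and the remaining 27 are called other cells. The division was wide, as the highest *Dcn* value under the threshold was 269.0 and the lowest above it was 6521. Of 10 further stromal markers, including *Lum*, *Col1a1* and *Pdgfra*, 57 of the 58 stromal cells held at least 3 at 10 reads or more, against 3 of the 27 other cells. Of 12 endothelial markers, including *Pecam1*, *Cdh5* and *Kdr*, 24 of the 27 other cells held at least 3, against 3 of the 58 stromal cells, although the sort had selected against CD144, the product of *Cdh5*. The summed endothelial markers ranged from 0 to 13720 CPM, a read count scaled to the same total in every cell (median 8355), in other cells and from 0 to 14180 (median 4.63) in stromal cells. In all, 4 cells held fewer than 3 markers of either list. Cells 13, 67 and 89 are other cells with at most 1 endothelial and at most 2 stromal markers, and they also had the 3 highest mitochondrial shares. Cell 50, with 1 stromal and 2 endothelial markers, is counted as stromal by its *Dcn* value alone. *Ucp1*, which marks brown adipocytes, was not analysed here. Of 8 brown adipocyte markers, 2 had values, *Adipoq* above 0 in 1 cell and *Cox8b* in 6 cells.

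The deposited values were read counts normalized by the authors. Whole reads could be recovered from them, with totals of 1146945 to 4776510 reads per cell (median 2847986), and both scales are given for the mitochondrial share. A read that fits a mitochondrial gene can fit a nuclear copy of it as well. The pairs shown here were chosen because they bear on the levels of *mt-Co1*, *mt-Nd3* and *mt-Co3*. Among the genes of the table, 7 pseudogenes on chromosome 1 matched a mitochondrial mRNA at 99% identity or more over at least 200 bases. The sequences were those of the GENCODE M21 transcripts (build GRCm38). *Gm28437* was identical to *mt-Co3*, the third subunit of cytochrome c oxidase, over 783 bases, and the first 90 bases of both transcripts are:
mt-Co3: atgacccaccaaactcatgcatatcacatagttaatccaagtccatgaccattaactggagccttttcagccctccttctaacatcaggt
Gm28437: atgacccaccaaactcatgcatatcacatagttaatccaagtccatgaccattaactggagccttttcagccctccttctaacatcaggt

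*Gm29216* matched only the end of *mt-Co1*, the catalytic subunit of cytochrome c oxidase. The match covered 483 bases from position 1063 to 1545, counted from 1 at the 5′ end of the *mt-Co1* transcript, and differed by the single substitution A1066T. A second pseudogene, *Gm13340* on chromosome 2, matched all 1545 bases at 97.6% identity. The first 94 bases of the shared stretch are given with mismatches in capitals, the *mt-Co1* letter being the capital that *Gm29216* changes:
mt-Co1: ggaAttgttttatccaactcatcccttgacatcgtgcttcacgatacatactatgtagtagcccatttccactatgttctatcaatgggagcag
Gm29216: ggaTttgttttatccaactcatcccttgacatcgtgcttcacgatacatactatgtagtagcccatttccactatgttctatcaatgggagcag
Gm13340: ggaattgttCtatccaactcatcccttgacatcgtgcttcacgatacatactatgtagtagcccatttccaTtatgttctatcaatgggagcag

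*Gm28438* matched *mt-Nd3*, a small subunit of complex I, over 345 bases with the substitution T3C, which is again in capitals in the first 93 bases:
mt-Nd3: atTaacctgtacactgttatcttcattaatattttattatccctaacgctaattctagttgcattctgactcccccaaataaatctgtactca
Gm28438: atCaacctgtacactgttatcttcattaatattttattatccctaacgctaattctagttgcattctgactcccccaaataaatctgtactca

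The 4 further pairs, all identical over their aligned length, were *mt-Atp6* with *Gm10925* (678 bases), *mt-Co2* with *Gm28661* (681 bases), *mt-Nd4* with *Gm28439* (876 bases) and *mt-Nd4l* with *Gm10222* (294 bases). A read that lies within these stretches cannot be told apart by its sequence unless it covers A1066T or T3C. The levels of these 7 mitochondrial genes are therefore uncertain by the amount counted on the copies. The search kept only matches of at least 200 bases to genes of the table, and every tRNA gene is shorter. It does not show whether *mt-Atp8* and the tRNA genes that lie between these 7, such as *mt-Ts1*, share reads with nuclear copies too.

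The mitochondrial share of the deposited value was 3.82% at the median of the 85 cells and ranged from 0.695% to 82.5%. It was 3.07% in stromal cells (range 0.817% to 27.1%, n = 58) and 9.20% in other cells (range 0.695% to 82.5%, n = 27). In recovered reads the medians were 3.21% (0.95% to 33.5%) and 9.19% (0.632% to 82.6%). Every stromal cell lay within the range of the other cells, and 5 other cells lay above the highest stromal cell. The lowest share of all was in other cell 88, at 0.632% of its reads (95% Wilson interval 0.623% to 0.641%, counting error only), and the highest in other cell 67, at 82.6% (82.5% to 82.6%). A share of at least 10% of reads was found in 4 of 58 stromal cells (6.90%, exact Clopper-Pearson interval 1.91% to 16.7%) and in 12 of 27 other cells (44.4%, 25.5% to 64.7%). Since cells of 1 sample share their source, these intervals cover the counting of cells and not a difference between animals. The deposited and the recovered scale ranked the cells alike (Spearman rho 0.91, n = 85), and 7 cells had a share of reads above 1.5 times the share of value. The largest gap was in stromal cell 50, at 2.59% of the value and 19.9% of the reads. In that cell the deposited values of the group of genes with *mt-Cytb* were 32.3 times the recovered reads, and those of the group with the rRNA genes 0.407 times. It had the fewest reads of all cells, and its recovered reads are less certain.

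The 3 other cells with neither set of markers had the highest shares. Cells 67, 13 and 89 had 82.6%, 78.6% and 73.02% of their reads on mitochondrial genes and 285, 377 and 405 genes above 0. With the reads listed for the 7 near-identical copies, mitochondrial sequence took 99.7%, 96.3% and 95.1% of their reads. Such a sum, and the total of reads, may hold the same read more than once, which was not tested. The reads that remained for all other genes were 7050 in cell 67, 94850 in cell 13 and 178253 in cell 89. Cell 67 thus had 18 genes outside the mitochondrial genes and their copies at 10 reads or more, cell 13 had 123 and cell 89 had 108. Without these 3 cells, the 24 other cells with endothelial markers had a median share of 7.72% of reads (range 0.632% to 46.8%). The next highest shares were 46.8% in other cell 22 with 1486 genes and 9 endothelial markers, 39.9% in other cell 69 with 854 genes and 6 endothelial markers, and 33.5% in stromal cell 49 with 1182 genes and 5 stromal markers.

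Cells with more genes above 0 had lower shares. Over all 85 cells, Spearman rho of the share of value with the number of genes was -0.50 (Pearson r -0.57), and rho was -0.59 with the share of reads. Within stromal cells it was -0.27 for values and -0.42 for reads (n = 58), and within other cells it was -0.66 on both scales (n = 27). In other cells Pearson r changed from -0.74 to -0.55 when the 2 cells farthest from the median number of genes, cells 13 and 67, were left out. In stromal cells it changed from -0.37 to -0.24 without cells 49 and 50. The points are cells of 1 sample, and both measures come from the same reads, so that mitochondrial reads leave fewer for other genes. The Spearman correlation of the share of reads with the total reads was -0.47 in stromal cells and -0.06 in other cells. With every cell thinned to 7050 reads outside the mitochondrial genes and their 7 near-identical copies, the number that cell 67 had, rho of the genes counted with the share of reads was -0.59 over all cells, -0.40 in stromal and -0.66 in other cells.

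The number of genes itself differed between the classes, with a median of 2813 (850 to 4148) in stromal and 1416 (285 to 2278) in other cells. Among the cells with 850 to 2278 genes, the range that both classes held, the median share of reads was 7.25% in 9 stromal cells (2.07% to 33.5%) and 7.72% in 24 other cells (0.632% to 46.8%). In deposited values these medians were 4.95% and 7.74%. The 24 other cells are all but cells 13, 67 and 89, and so are the same 24 with endothelial markers described above. The classes were still not alike in this range, with a median of 2053 genes in the 9 stromal and 1463.5 in the 24 other cells. The part of the number of genes in the difference between the classes was not tested.

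**Figure D1:**
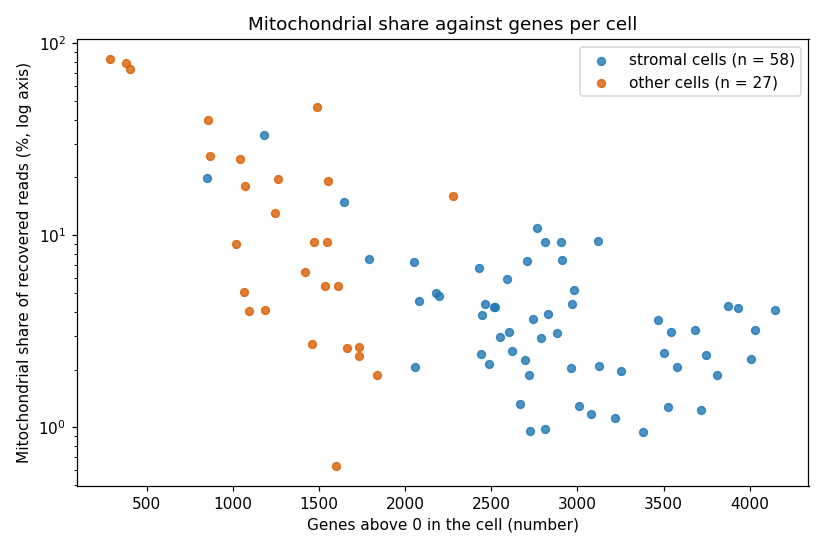
Mitochondrial share of recovered reads (percent, log axis) against the number of genes above 0, with 1 point per cell for 58 stromal and 27 other cells. The 3 cells above 70% lie at 285 to 405 genes, and 4 of the 58 stromal cells are at 10% or more.

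*mt-Rnr2*, the RNA of the large ribosomal subunit, was the highest mitochondrial gene in 71 of 85 cells (49 stromal, 22 other), where it held 21.9% to 73.8% of the mitochondrial reads. *mt-Cytb* led in 9 cells, *mt-Co1* in 3, and *mt-Atp6* and *mt-Rnr1* in 1 each. Both rRNA genes together held 44.95% of the mitochondrial reads of a cell at the median, 48.7% in stromal cells (4.73% to 89.3%) and 38.4% in other cells (6.75% to 72.6%). The 13 mRNA genes held 55.03% at the median and the 22 tRNA genes 0.0786%. By complex, the 3 cytochrome c oxidase (complex IV) genes held 16.7%, the 7 complex I genes 14.01%, *mt-Cytb* of complex III 11.1% and the 2 ATP synthase (complex V) genes 6.69%. For every complex the ranges of stromal and other cells overlapped.

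Levels of different genes were compared per length, as percent of the cell's mitochondrial reads per 1000 bases of transcript. *mt-Rnr2* was first, with a median of 24.4 (quartiles 16.03 and 31.6, n = 85). *mt-Co3* followed with 10.6 (7.10 and 14.3), *mt-Cytb*, the cytochrome b of complex III, with 9.69 (4.64 and 13.8), *mt-Atp6* with 8.26 (2.32 and 16.3) and *mt-Rnr1*, the RNA of the small ribosomal subunit, with 6.96 (3.96 and 10.47). The quartiles of these last 4 overlapped, so their order was not beyond the spread of cells, and those of *mt-Atp6* reached the lower quartile of *mt-Rnr2*. *mt-Nd1*, *mt-Atp8* and *mt-Co2* lay at 4.998, 4.957 and 3.63, and *mt-Nd4*, *mt-Nd6* and *mt-Nd5* at 2.42, 1.33 and 1.08. The lowest were *mt-Nd2* at 0.728, *mt-Nd3* at 0.456, *mt-Nd4l* at 0.0520 and *mt-Co1* at 0.0122. *mt-Co1* was last at the median, yet its upper quartile was 9.99. It was listed at 0 in 41 cells, at 1 to 999 reads in 12 and at 1000 reads or more in 32.

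Values of 0 were found for 11 of the 15 mRNA and rRNA genes, in numbers of cells that differed widely. The 4 others were above 0 in every cell. They were *mt-Rnr1*, *mt-Atp6*, *mt-Co3* and *mt-Nd4*. A cell had 2 of the 15 listed at 0 at the median (0 to 6). Only 6 cells, 3 of each class, had none at 0. *mt-Co1* was listed at 0 in 41 cells, *mt-Nd1* in 30, *mt-Nd2* in 24, *mt-Nd4l* in 23 and *mt-Nd3* in 20. *mt-Rnr2* was listed at 0 in 9 cells, *mt-Nd6* in 8, *mt-Co2* in 6, *mt-Cytb* in 5, *mt-Nd5* in 3 and *mt-Atp8* in 1. Zeros were also found in cells with many mitochondrial reads. *mt-Co1* was listed at 0 in other cell 13, which had 2014816 mitochondrial reads, and *mt-Nd2* in other cell 89, which had 2669121. *mt-Cytb* was listed at 0 in other cell 69 with 949644. The median number of mitochondrial reads was 108958 in cells with *mt-Co1* at 0 and 108133 in cells with it above 0. Where *mt-Rnr2* was not at 0, it was at 1000 reads or more in all 76 cells, and *mt-Co1* was at that level in 32 of its 44 cells, but *mt-Nd3* in 16 of 65 and *mt-Nd4l* in 12 of 62. As every respiring cell uses these genes, a value of 0 is given here as listed at 0. The differences between the classes given below include these zeros, so they mix the number of cells listed at 0 with the level in the cells above 0.

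**Figure D2:**
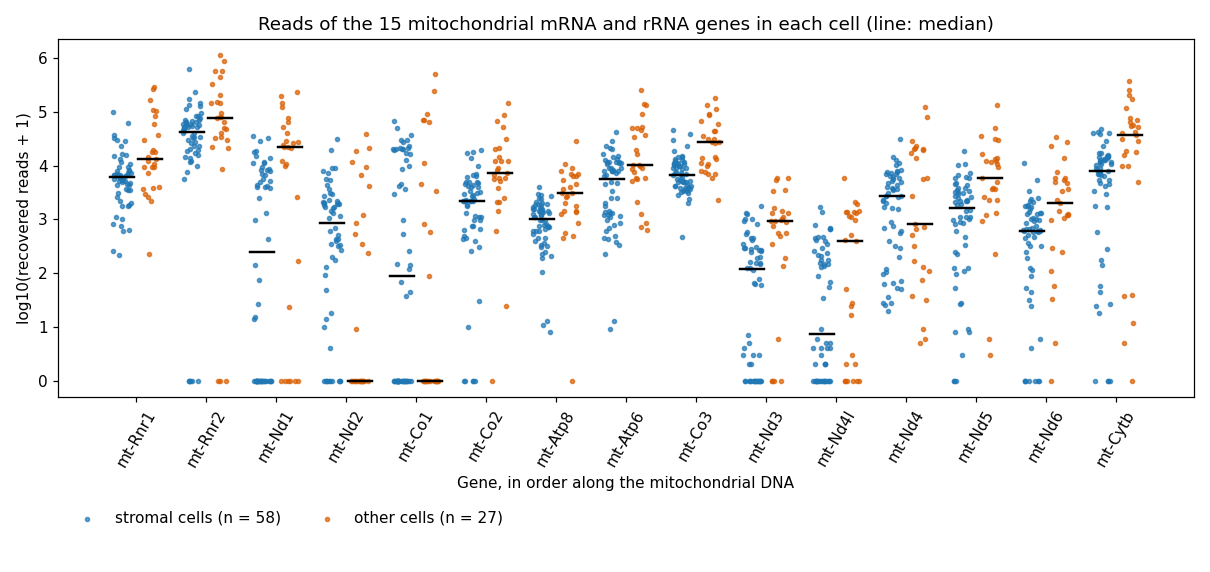
Recovered reads (log10 of reads + 1) of the 15 mitochondrial mRNA and rRNA genes, with 1 point per cell in 58 stromal and 27 other cells and a black line at the median. *mt-Co1* and *mt-Nd2* have a median of 0 in other cells, with 12 and 13 cells above 0, whereas *mt-Co3* and *mt-Rnr1* are above 0 in every cell.

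How closely the reads of a nuclear copy matched those of its mitochondrial gene differed between the 7 pairs. *mt-Co3* and *Gm28437* had counts within 5% of each other in 84 of 85 cells, and *mt-Co2* and *Gm28661* in 76 of the 79 cells with both above 0. For *mt-Nd3* and *Gm28438* it was 37 of 64 cells, for *mt-Nd4l* and *Gm10222* 25 of 61, and for *mt-Nd4* and *Gm28439* 1 of 63, as it was 1 of 44 for *mt-Co1* and *Gm29216*. *mt-Atp6* and *Gm10925* were within 5% in 44 of 85 cells, and the copy was at least 2-fold higher in 39. *Gm29216* was above 0 in every cell (799 to 206336 reads, median 7828), including all 41 cells with *mt-Co1* listed at 0, where it had 3572 to 111025 reads (median 9197). In the same 41 cells the less similar *Gm13340* had 25 to 1019 reads (median 107). In the 6 cells with *mt-Co2* at 0, *Gm28661* had 886 to 4233 reads. The 20 cells with *mt-Nd3* at 0 also had *Gm28438* at 0, so adding the copy left that gene listed at 0 there.

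All 7 copies together took 0.250% to 22.1% of a cell's reads (median 1.16%), with 0.873% in stromal and 3.89% in other cells at the median. For each mitochondrial read there were 0.287 reads on the copies at the median (0.127 to 0.780). Counting a copy with its gene raised the *mt-Co1* level to 4.95% per 1000 bases (quartiles 3.69 and 10.8) and left no cell at 0. On that scale *mt-Atp6* was at 16.3 and *mt-Co3* at 15.5, next to *mt-Rnr2* at 18.8. The median share of reads with the copies was 4.24% in stromal and 13.3% in other cells. Whether the reads on the copies came from mitochondrial RNA or from the nuclear loci was not tested. Whether a read was counted on a gene and again on its copy was not tested either. The sums of a gene and its copy, and the totals of reads, may therefore hold the same read more than once.

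**Figure D3:**
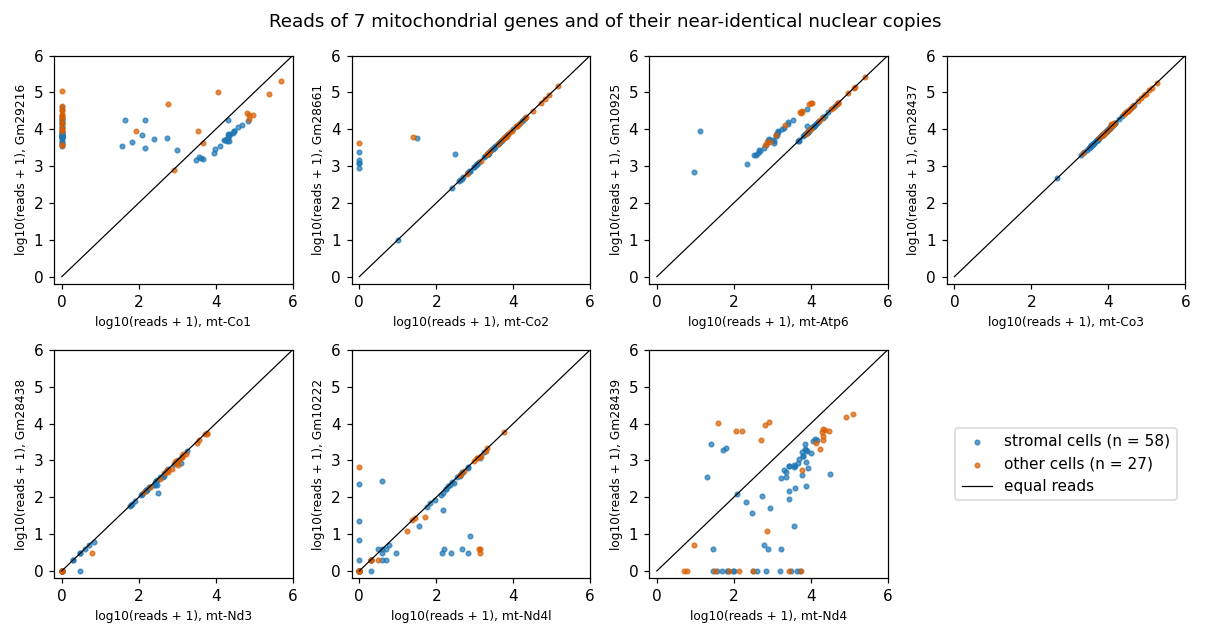
Recovered reads (log10 of reads + 1) of 7 mitochondrial genes (horizontal) against their near-identical nuclear copies (vertical), with 1 point per cell and a line at equal reads. *mt-Co3* lies on the line in 84 of 85 cells within 5%, and for *mt-Co1* a column of 41 cells at 0 has 3572 to 111025 reads on *Gm29216*.

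Between the classes, a gene was counted as higher where the mean of log2(deposited value + 1) differed by at least 1. For 20 of the mitochondrial genes, among them *mt-Nd1*, *mt-Nd3*, *mt-Nd6* and *mt-Atp8*, the deposited values equal the recovered reads in every cell. The other 17 carried a factor per cell, so the differences of these 17 and of the 20 are not on the same scale. Of the 37 genes, 35 were above 0 in at least 3 cells and were compared, which left out *mt-Tr* and *mt-Ts2*, each above 0 in 2 cells. Of the 35, 15 were higher in other cells, where 2.84% of all 11478 genes compared were, and 1 was higher in stromal cells, where 35.6% of all genes were. The median difference, other minus stromal, was 0.78 over the 35 genes and -0.64 over all genes compared. Of the 13 mRNA genes, 10 were higher in other cells, 1 in stromal cells, and 2 were within the limit. Cells 13, 67 and 89, which held neither marker list and had the highest mitochondrial shares, count as other cells in all these differences. The differences and counts of genes were not recomputed without them. *mt-Tf*, the tRNA at the start of the order, was above 0 in 3 of 27 other cells and 0 of 58 stromal cells, which allows a share of up to 5.17% (3 cells of the total, a limit on cells with a read and not on cells that express the gene). It passed the filter through other cells alone, and *mt-Tl2* through 3 stromal cells alone, where 0 of 27 other cells allows a share of up to 11.1%.

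Among the complex I genes, *mt-Nd1* had the largest difference, 4.23 on this scale, with a median of 22086 reads in other cells (0 to 237511) and 282 in stromal cells (0 to 35851). It was above 0 in 21 of 27 other and 34 of 58 stromal cells, so part of the difference is the number of cells listed at 0. *mt-Nd3* differed by 3.29 (923 against 119 reads at the median), *mt-Nd5* by 2.54 (5901 against 1664.5), *mt-Nd6* by 2.24 (2000 against 621) and *mt-Nd4l* by 1.75 (403 against 6.5). *mt-Nd6* lies on the other strand from the nearest mRNA genes, *mt-Nd5* and *mt-Cytb*, and *mt-Nd4l* overlaps *mt-Nd4*. As SMARTseq libraries do not keep the strand, reads of both strands at the same place cannot be told apart.

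*mt-Nd2* had the opposite sign, through the number of cells listed at 0. It was above 0 in 48 of 58 stromal cells, with a median of 883.5 reads (0 to 30911), and in 13 of 27 other cells, with a median of 0 (0 to 38299), and its difference was -2.84. Where it was above 0, its median was 4176 reads in other and 1640.5 in stromal cells. It was listed at 0 in the 8 other cells with the highest mitochondrial shares, down to a share of 19.7%, so it did not follow the mitochondrial total (rho of reads -0.26 in 27 other cells and 0.24 in 58 stromal cells). *mt-Nd2* has a copy, *Gm13339*, that is 96.7% identical over 510 bases, and where *mt-Nd2* was at 0 that copy had 0 to 2623 reads (median 177). *mt-Nd4* was within the limit at 0.25, with a median of 2683 reads in stromal cells (19 to 31842) and 822 in other cells (4 to 123509), and its range was wider in other cells.

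Of the complex III and IV genes, *mt-Cytb* differed by 1.97 (37135 reads in other and 7856.5 in stromal cells at the median), *mt-Co2* by 2.35 (7274 and 2190) and *mt-Co3* by 1.74. *mt-Co3* had the smallest SD of log2(value + 1) of the 15 genes in each class (1.11 in stromal and 1.62 in other cells), with 2256 to 182113 reads in other cells (median 27394) and 470 to 46952 in stromal cells (median 6727), and in other cells it followed the mitochondrial total, of which it is a part (rho 0.93). *mt-Co1* was within the limit at -0.48, above 0 in 32 of 58 stromal cells (median 93 reads, up to 68598) and 12 of 27 other cells (median 0, up to 509404). On log2(CPM + 1) of the recovered reads the difference for *mt-Co1* was -0.38 alone and 1.35 together with *Gm29216*, so its direction turned with the copy. For *mt-Nd4* these values were 0.13 and 0.84. The ATP synthase genes *mt-Atp6* and *mt-Atp8*, which overlap each other, differed by 2.21 (10179 and 5758.5 reads at the median) and 1.57 (3083 and 1040).

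Of the rRNA genes, *mt-Rnr1* differed by 1.43, with a median of 13526 reads in other cells (225 to 295732) and 6149.5 in stromal cells (214 to 101188). *mt-Rnr2* differed by 0.85, with a median of 77248 reads (0 to 1144985) in other and 43114.5 (0 to 625644) in stromal cells. It was listed at 0 in 3 other and 6 stromal cells.

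Most pairs of mitochondrial genes were positively related across cells. Each gene was taken relative to the reads outside the mitochondrial genes, and the 15 mRNA and rRNA genes gave 105 pairs. Spearman rho was above 0 for 93 pairs in other cells (median 0.61, n = 27) and for 79 pairs in stromal cells (median 0.15, n = 58). These pairs share the denominator and the range of shares, which was wider in other cells.

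**Figure D4:**
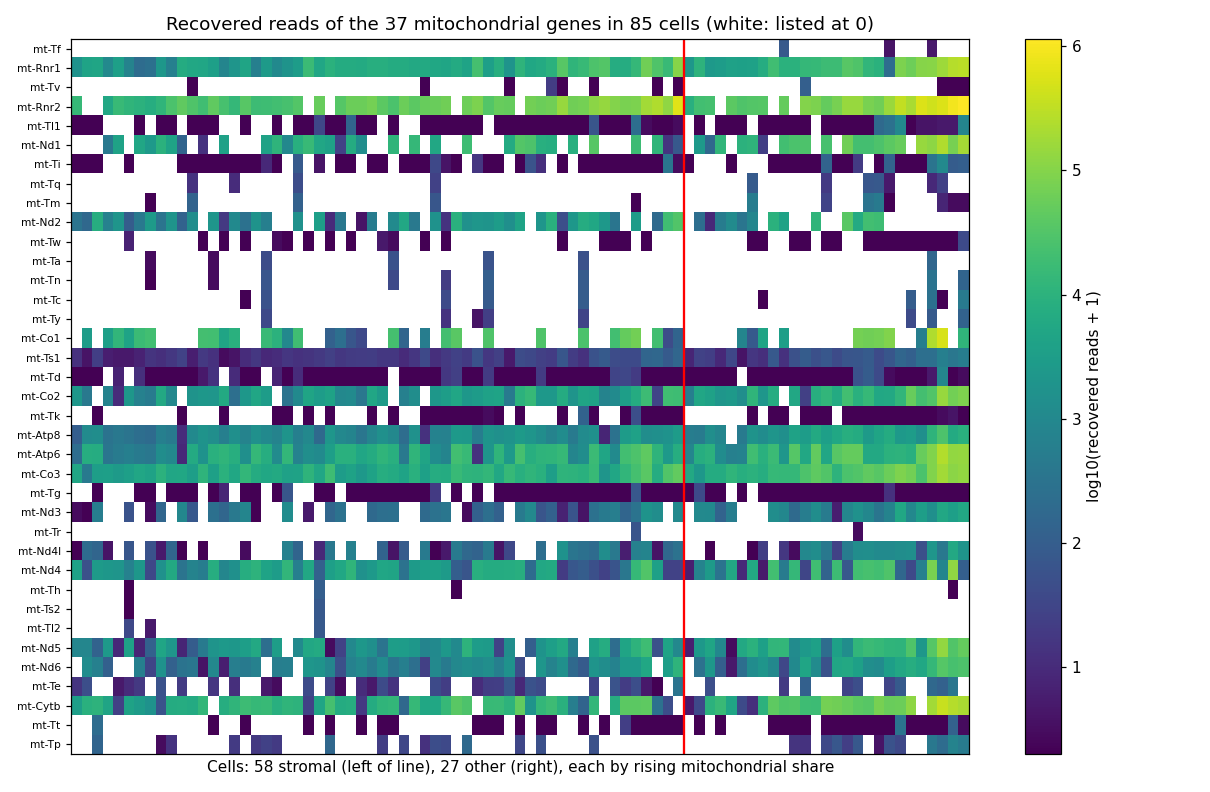
Recovered reads (log10 of reads + 1) of the 37 mitochondrial genes, in order along the mitochondrial DNA, in 58 stromal cells (left of the red line) and 27 other cells (right), each ordered by rising mitochondrial share; white is a gene listed at 0. White gaps occur in *mt-Co1* (41 cells) and *mt-Nd1* (30 cells), the latter up to a share of 25.8%, and *mt-Nd2* is white in the 8 other cells at the right edge.

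The tRNA genes had the fewest reads. A mature tRNA is short and folded and carries no poly(A) tail. *mt-Ts1*, the tRNA for serine that lies beside *mt-Co1* on the light strand, was the exception, above 0 in every cell, with 2 to 164 reads in stromal cells (median 16.5) and 3 to 596 in other cells (median 66). It is shown because it alone among the tRNA genes was above 0 in all cells:
mt-Ts1: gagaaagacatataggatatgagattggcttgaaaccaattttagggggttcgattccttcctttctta

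The reads of *mt-Ts1* followed those of all mitochondrial genes (rho 0.82, n = 85) and of *Gm29216* (rho 0.89). They did not follow the reads listed for its neighbour *mt-Co1* (rho -0.05). These rhos share the depth of the cells. *mt-Co1* was listed at 0 in 41 cells, where *Gm29216* had 3572 to 111025 reads. The rho of -0.05 therefore cannot show whether *mt-Ts1* followed the RNA of *mt-Co1*. As the strand of a read was not kept, the reads of *mt-Ts1* may come from either strand. Whether they came from *mt-Co1* RNA was not tested. The median of *mt-Ts1* was 0.019% of the mitochondrial reads in stromal cells and 0.021% in other cells.

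The tRNA genes differed by the strand of the gene. The strand of a read was not kept, so these reads may come from either strand. The 14 tRNA genes of the main strand gave 437 values above 0 over the 85 cells, of which 342 (78.3%) were exactly 1 read. *mt-Td*, for aspartate, was at exactly 1 read in 58 of its 79 cells and *mt-Tg*, for glycine, in 62 of its 68. Of the 204 values above 0 of the 8 light-strand genes, 5 (2.45%) were exactly 1 read and 169 (82.8%) were 10 reads or more. *mt-Ts1* is among the 8 and gave 85 of these values, 0 at exactly 1 read and 71 at 10 reads or more. Over the genes as a whole, 4.19% of the values above 0 were exactly 1 read. The 2.45% is below it only with *mt-Ts1* included. Reads of neighbours came together in a few cells. *mt-Ta*, *mt-Tn*, *mt-Tc* and *mt-Ty*, which lie next to each other on the light strand between *mt-Nd2* and *mt-Co1*, were all at 0 in 71 cells, and 4 of the 8 cells with 10 reads of any of them had 10 reads of all 4. *mt-Tq* and *mt-Tm* were both at 10 reads or more in 7 of the 9 cells where either was.

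Of the 20 tRNA genes compared, 4 were higher in other cells, namely *mt-Tp* (1.43), *mt-Ts1* (1.42), *mt-Ti* (1.05) and *mt-Tl1* (1.02). *mt-Tp*, for proline, was above 0 in 13 of 27 other and 17 of 58 stromal cells. *mt-Ti* and *mt-Tl1*, for isoleucine and leucine, had a median of 1 read in both classes, and 13 and 8 of the 85 cells had 10 reads or more, up to 1050 and 963 in other cells. The remaining 16 were within the limit. Cells 13, 67 and 89, which held neither marker list, had 755, 493 and 215 reads of *mt-Tp* and 94, 109 and 1050 of *mt-Ti*. They had 4, 818 and 4 reads of *mt-Tl1*. These differences were not recomputed without those cells.

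The nuclear genes that work with the mitochondrial genome were taken as 3 lists. Symbols of the families *Nduf*, *Uqcr*, *Cyc1*, *Cox4* to *Cox8* and *Atp5*, which include a few assembly factors and pseudogenes, gave 93 genes for complexes I, III, IV and V. Of the 89 compared, 67 (75.3%) were higher in stromal cells by at least 1, beside 35.6% of all genes, and 0 in other cells, with a median difference of -1.79 beside -0.64 for all genes. On log2(CPM + 1) the counts were 62 and 0. All genes compared include genes above 0 in as few as 3 cells, and they were not matched to the list by the number of cells above 0. The largest differences were *Ndufa13* (-5.57, above 0 in 44 of 58 stromal and 5 of 27 other cells), *Cox7b* (-5.41, 38 and 4 cells), *Ndufb11* (-4.94, 34 and 2 cells), *Atp5a1* (-4.82, 38 and 5 cells) and *Ndufa2* (-4.73, 41 and 6 cells). At the other end were *Cox8b* (0.85), *Cox5a* (0.48), *Uqcrfs1* (0.32), *Uqcrb* (0.18) and *Atp5j* (0.05, above 0 in 47 and 20 cells). By complex, 36 of 46 complex I genes (78.3%), 10 of 13 complex IV genes (76.9%) and 16 of 19 complex V genes (84.2%) were higher in stromal cells. For complex III it was 5 of 11 genes (45.5%), which is near the 35.6% of all genes.

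The summed level of these 93 genes gave another picture. In CPM of the reads outside the mitochondrial genes it was 14474 at the median in stromal cells (1633 to 26872) and 17860 in other cells (6.12 to 31628). A stromal cell had a median of 45.5 of the 93 genes above 0 and an other cell 23, so fewer genes carried a sum of like size in other cells. The number of all genes above 0 was lower in other cells too, at a median of 1416 against 2813. The part of this in the differences of the 93 genes was not tested. The sum was at most 20.04 in cells 13, 67 and 89 and at least 10161 in the 24 other cells with endothelial markers. Spearman rho of the sum with the mitochondrial share of reads was -0.30 in stromal cells (n = 58), -0.77 in other cells (n = 27) and -0.67 without the 3 cells (n = 24). By complex, rho in those 24 cells was -0.02 for complex I, -0.10 for complex IV, -0.50 for complex III and -0.55 for complex V. The points again share their reads and the number of genes. The reads outside the mitochondrial genes also include the near-identical copies, so the sum falls where the copies take more of them. Cell 67 had 490200 such reads, of which 7050 lay outside the copies. The sums and rhos were not recomputed without the copies.

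**Figure D5:**
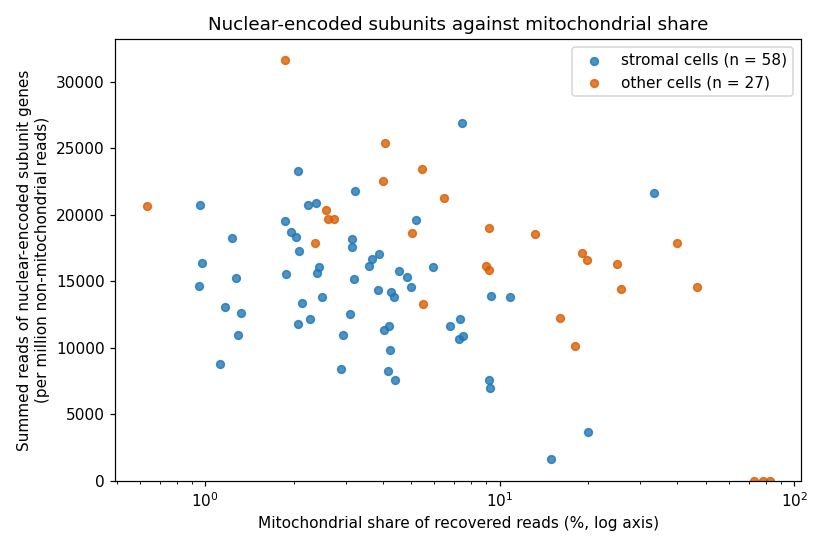
Summed reads of 93 nuclear-encoded subunit genes, in CPM of the reads outside the mitochondrial genes, against the mitochondrial share of reads (percent, log axis), with 1 point per cell in 58 stromal and 27 other cells. The 3 cells at the right edge have sums of at most 20.04, and the other 24 other cells have sums of 10161 or more.

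Of 44 nuclear genes for mitochondrial transcription, RNA processing and translation, 36 were in the table and 27 were compared. Of these, 6 (22.2%) were higher in stromal cells and 0 in other cells, with a median difference of -0.56. As 35.6% of all genes were higher in stromal cells, with a median of -0.64, this list did not exceed the background. The largest differences were *Ssbp1*, which binds single-stranded mitochondrial DNA (-3.06, above 0 in 21 stromal and 0 other cells), *Hsd17b10*, a subunit of mitochondrial RNase P (-2.33, 20 and 3 cells), *Slirp*, which stabilizes mitochondrial mRNAs (-1.87, 28 and 6 cells), *Mterf3* (-1.81, 12 and 0 cells) and *Gfm2*, a factor of ribosome recycling (-1.51, 23 and 1 cells). *Tfam*, which packs mitochondrial DNA and starts its transcription, was above 0 in 4 stromal cells and 1 other cell (-0.01). *Tsfm*, *Tfb2m*, *Pnpt1* and *Lonp1* were above 0 in 3 or fewer other cells, at -0.09, -0.13, -0.21 and -0.31.

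Of 16 regulators of mitochondrial biogenesis, 11 were in the table, 10 were compared and all 10 were within the limit. *Nrf1*, which drives nuclear genes of the respiratory chain, was above 0 in 7 stromal and 0 other cells (-0.99), *Sirt3* in 7 and 1 (-0.63) and *Sirt1* in 9 and 4 (0.51). A cell of either class had at most 1 of these genes above 0 at the median. With so few cells above 0, the levels of the regulators could not be compared between the classes.

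The genes whose level was most like the mitochondrial share were mostly its own copies. For each gene above 0 in at least 50% of the cells of a class, rho was taken between the mitochondrial share and log2(CPM + 1) of the reads outside the mitochondrial genes. Among 1643 genes in 58 stromal cells the highest were *Gm29216* (0.84), *Gm13340* (0.84), *Gm10925* (0.76), *Gm4332* (0.70) and *Gm28437* (0.70). Among 385 genes in 27 other cells they were *Gm10925* (0.97), *Gm13339* (0.95), *Gm28437* (0.95), *Gm13340* (0.92) and *Gm29216* (0.91). All but *Gm4332* are listed above as copies of mitochondrial genes. The lowest were *H2-Q1* (-0.63), *Gm13202* (-0.59), *Gm10157* (-0.58), *Cd81* (-0.57) and *Gm14150* (-0.57) in stromal cells, and *Gm9844* (-0.63), *Rpl13-ps6* (-0.59), *Gm6170* (-0.58), *Ybx1-ps2* (-0.57) and *Itm2b* (-0.57) in other cells. The median over all genes ranked was -0.04 in stromal and -0.24 in other cells. The reads outside the mitochondrial genes include the near-identical copies, so copies that rise with the share lower the CPM of the remaining genes.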

How the data were processed

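Single PV-ADSCs of 1 condition were sequenced as 1 library per cell. The authors aligned reads to mm9 with HISAT2 2.0.5, sorted them with SAMtools 1.4, assembled them with StringTie 1.3.3, and used scater for quality control and scaling; the program that counted reads per gene is not given in the sources used here. Their deposited table, of 16069 genes and 85 cells, holds a normalized signal derived from read counts.

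Genes fell into 13 groups that each had 1 factor per cell, beside genes left whole. Dividing by these factors gave whole reads for 100% of 200972 values above 0 (relative tolerance 6e-09). These values include those of 10665 genes that were whole in every cell and were not divided. Factors and groups were themselves chosen to make values whole, so the 100% does not test them. In 20 of 1105 combinations of group and cell fewer than 10 values were above 0, and these are less certain. The method was tested on data simulated from the recovered reads themselves, so that test cannot show whether the real reads were recovered correctly. Lengths, strands and copies come from GENCODE M21 transcripts (GRCm38), searched with blastn 2.17.0, so no mm9 coordinates are given.

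Shares, medians, Spearman rho and differences in mean log2(value + 1) were computed with numpy 2.4.6, pandas 2.3.3 and scipy 1.17.1, for genes above 0 in at least 3 cells. As all cells are 1 sample, no test was run. Genes named were all members, *Dcn*, up to 5 at each end of every nuclear list, and the 5 highest and 5 lowest by rho, and the nuclear copies, which were chosen after their values were seen. The members and lists were chosen with earlier results of these data known. Alternatives were other thresholds, pseudocounts, filters, recovered reads, thinning and cells left out.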

Additional observations from a re-analysis of the deposited data

How the results depend on the processing

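Of 143 recomputed values, 1 reversed. The difference for *mt-Co1*, other minus stromal, was -0.48 in deposited values and -0.38 in log2(CPM + 1), but 1.35 with the reads of *Gm29216* added. A further 12 moved beyond the limits used, which were 1 SD over cells for a share, 0.1 for rho, 1.5 times for a count, and the side of the limit of 1 for a gene. The limit for shares is wide, as the SD of 15.2 percentage points over all cells exceeds the median of 3.82%. The difference between the class medians was 6.13 percentage points in deposited values, 3.55 for cells with at least 1000 genes, 4.65 without the 4 cells that held neither marker list, and 2.80 among cells with 850 to 2278 genes. In stromal cells rho of the share with genes per cell was -0.27 for deposited values, -0.42 for recovered reads, -0.38 for recovered reads thinned to equal reads outside the mitochondrial genes, and -0.40 when the copies were left out of the thinning too. With the reads of near-identical copies added it was -0.45 in stromal and -0.63 in all cells. Among cells with 850 to 2278 genes it was -0.12 in stromal and -0.51 in other cells, and it was -0.51 in other cells without the 3, or all 4, cells that held neither list. With *Dcn* at or above 100 as the threshold, 2 mitochondrial genes in place of 1 were higher in stromal cells. The number higher in other cells was 19 with a pseudocount of 0.1, 12 with 10, and 14 with log2(CPM + 1), where the median of all genes was -0.50 in place of -0.64 and *mt-Rnr2* passed the limit at 1.08. The median share of the mitochondrial total that *mt-Co1* held was 0.0386% in deposited values and 0.0188% in recovered reads. The alternatives with copies, the range of genes, the cells with neither list, cell 50, and thinning with recovered reads were chosen after seeing the data. No paired analysis was possible because there is 1 group, and with 1 sample no replicate could be left out.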

Other observations

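Other tRNA neighbours on the main strand were also counted together in a single cell. *mt-Th*, *mt-Ts2* and *mt-Tl2*, which follow each other between *mt-Nd4* and *mt-Nd5*, were all at 0 in 80 of 85 cells, and 1 cell had 10 reads or more of all 3. Outside the copies at 99% identity, the genes most like the mitochondrial share in stromal cells were *Gm13340*, *Gm4332* (0.70), *Gm8292* (0.63), *Gm24276* (0.62) and the ribosomal protein gene *Rps20* (0.61), and these 5 were named after their values were seen.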
